A study of Mus musculus with 50 samples.

Results

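The cells described here were the B2M membrane-bright cells of the mouse liver, that is the segmented cells whose mean membrane stain for the protein B2M was among the highest 5% of their own tissue area. They were chosen by this stain among the cells with at least 20 gene counts, and they were set against the cells whose stain lay below the median of the same area. Of 52132 segmented cells, 49917 had 20 counts or more, 2498 of these were bright and 24957 were below the median, while the cells between the median and the top 5% entered neither side. Counts of single transcripts, summed per side and area, were then compared between the sides. The stain chose the cells and the transcripts did not, so the stain of bright against dim cells is given as a description with no test, and the tests between the sides are of the transcripts and the other measures.

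The data came from CosMx spatial molecular imaging, in which fluorescent probes are read in cycles on a tissue section and each decoded spot is counted as 1 transcript of 1 target. The panel held 1000 gene targets and 10 negative probes that match no transcript, and the same cells were stained for B2M, PanCK (epithelial keratins), CD45 (leukocytes), CD3 (T cells) and DAPI (DNA). Fields of view of 5 µm liver sections, 50 in all, formed 6 tissue areas on 1 slide, with 3 areas of Control and 3 of HIRA KO. HIRA deposits the histone H3.3 in chromatin outside replication. Control mice were wild type (WT) and HIRA KO mice were HIRA fl/fl, all on C57BL/6, and both groups carried AAV8 Tbg-Cre, a virus given behind the eye at 6 months of age that expresses Cre from a promoter active in hepatocytes. Livers were taken 12 months later, at 18 months. That promoter directs the deletion to hepatocytes. By lineage tracing the paper reports cells of hepatocyte origin that stain for a bile duct keratin in HIRA KO livers, so bile duct-like cells may carry the deletion too. Hira was not among the targets, so that the deletion could not be checked in these counts. The labels name no mouse, so p-values over areas measure the spread between areas of 1 slide, and Control and HIRA KO areas sat in separate columns of it, so that genotype and column cannot be told apart.

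B2M, or beta-2 microglobulin, is the small light chain that pairs with the heavy chains of MHC class I, the molecules that display peptides from inside the cell to CD8 T cells. Nearly every nucleated cell carries class I molecules, and in the liver endothelial cells, Kupffer cells (the resident macrophages), other leukocytes and bile duct cells are known to carry more of them than resting hepatocytes, while interferons raise them in all of these. The classical heavy chains of the mouse are H2-K and H2-D, the non-classical ones include H2-T23 (Qa-1) and H2-M3, and H2-Q10 is a class Ib molecule that hepatocytes secrete in soluble form. TAP1 and TAP2 form the transporter that carries peptides to the class I molecules, and NLRC5 is the regulator that switches on class I genes.

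By the rule, bright cells were the upper tail of each area. The 95th percentile of the stain was 6003, 4732 and 7049.6 in the Control areas and 7536, 5972 and 6911 in the HIRA KO areas, in units of image intensity, against medians of 2964, 2485 and 3352 in the Control areas and 3628, 2999 and 3839.6 in the HIRA KO areas. The dimmest bright cells stood at 6003, 4732 and 7051 in the Control areas and 7544, 5974 and 6913 in the HIRA KO areas, and the brightest cells just outside the rule at 5999, 4732 and 7049 in the Control areas and 7536, 5969 and 6911 in the HIRA KO areas. The threshold thus cut a continuous tail, and in each area the cells on either side of it differed by little. The share of cells that were bright ranged from 0.391% to 13.2% over the fields of view, so bright cells were not spread evenly. Since the rule ranks cells within an area, levels between areas could be compared: the 95th percentile averaged 5928 ± 1161 (SD, n = 3) in Control and 6807 ± 788 (SD, n = 3) in HIRA KO. The groups overlapped, and the difference of 878 lay under the SD of Control and above that of HIRA KO (exact permutation test, two-sided, p = 0.50, where the smallest p that 3 against 3 allows is 0.10). The medians of the stain in the groups overlapped as well (exact permutation test, p = 0.20).

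Bright cells were small cells with densely packed transcripts. Median cell areas averaged 6356 ± 469 square pixels in bright cells and 16157 ± 3856 in cells below the median (mean ± SD of the 6 area medians), and it was smaller in bright cells in 6 of 6 areas. They held fewer gene counts per cell, 84.9 ± 10.3 against 126 ± 35.3, but more per 1000 square pixels, 13.4 ± 2.39 against 8.06 ± 2.12. A larger share of their transcripts lay over the nucleus, 55.0 ± 3.83% against 48.7 ± 3.83%, and their DAPI stain was brighter, 3042 ± 579 against 2413 ± 423. Among the other proteins CD45 differed the most, with 1734 ± 661 against 741 ± 119.97, a ratio of 2.33 as the mean of the 6 area ratios. PanCK was only slightly higher, 2854 ± 490.5 against 2762 ± 494, although in 6 of 6 areas. Each of these, and the lower share of negative probe counts (0.309 ± 0.0464% against 0.452 ± 0.0303%), passed an exact sign-flip permutation test over the 6 areas (two-sided p = 0.0312, the smallest that 6 areas allow, adjusted p = 0.0352 over 9 features). CD3 did not, with 641 ± 138 against 629.7 ± 107 (exact p = 0.47, higher in 3 of 6 areas). When bright cells were ranked only against cells of like size, in 10 bands of cell area, the lower count per cell became a higher one, by 23.25 counts, and the differences in nuclear share (-2.52 percentage points) and DAPI (-110.99) turned sign. None of the 9 features then passed the adjusted threshold. Gene counts, counts per 1000 square pixels, PanCK, CD45 (806 higher) and the negative probe share narrowly missed it (exact sign-flip permutation test, adjusted p = 0.0563 each).

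Bright cells overlapped only in part with cells bright for the other proteins. Of the 2498 bright cells, 11.05% were also in the top 5% for CD45 of their area, 10.5% in the top 5% for PanCK and 7.61% in the top 5% for CD3, against 2.12%, 4.08% and 2.52% of the cells below the median. Together 22.3% of bright cells and 6.99% of the other side were bright in at least 1 of these stains. Within areas the B2M stain ran with CD45 more than with any other stain (Spearman rho over cells from 0.281 to 0.502), and against cell area (rho from -0.258 to -0.156), given here as a description of cells that share a slide and a section. Bright cells also lay within 150 pixels of the edge of a field of view more often, 22.4% against 13.6%.

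Each of the 6 sums of bright cells held 31522 to 55174 gene counts and each sum of the other side 356435 to 865783, so that a level in bright cells rested on far fewer counts than the one behind its partner. Counts were scaled to CPM, counts scaled to a common library total after TMM, a scaling that lines up the bulk of the genes, and were compared with edgeR's quasi-likelihood test with the area as a block, so that each bright sum was set against the sum of its own area. Of 998 genes tested, 178 (17.8%) were higher and 117 (11.7%) lower in bright cells at a Benjamini-Hochberg adjusted p under 0.05, 29.6% in all, and the median log2 difference of all genes was -0.03. With scaling by library size alone the split was 141 higher and 187 lower. Of the called genes, 140 of the 178 and 85 of the 117 moved the same way in 6 of 6 areas. A level of 191 counts, the mean of the highest negative probe over the sums, was not exceeded by 254 of the 998 genes, among them 39 of the called ones. That level was set mostly by the deeper below-median sums. There the highest negative probe had 258 to 568 counts, against 18 to 33 in the bright sums. In a sum over many cells, more cells of a type and more transcripts per cell cannot be told apart. Heavy chains of class I are near-identical paralogs, and whether probes for one also detected another was not tested, so the split of counts between them is uncertain.

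The transcript of the stained protein was higher where the stain was bright. B2m stood at 11393, 6501 and 12647 CPM in Control areas 1 to 3 and 9782, 6831 and 17343 CPM in HIRA KO areas 1 to 3 in bright cells. In the cells below the median it stood at 4418, 2623 and 4759 CPM in Control areas 1 to 3 and 5582, 4452 and 7075 CPM in HIRA KO areas 1 to 3. In each area the bright cells were above their own partner, although the sides overlapped across areas, because the below-median cells of HIRA KO area 3 exceeded the bright cells of Control area 2 and HIRA KO area 2. The log2 difference was 1.13 (SD of the 6 area ratios 0.33, adjusted p = 7.7e-07), a fold of 2.19.

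Both classical heavy chains went with it. H2-K1 stood at 7196, 5689 and 8109 CPM in Control areas 1 to 3 and 6899, 5349.8 and 10876 CPM in HIRA KO areas 1 to 3 in bright cells. It stood at 3159, 2494 and 4514 CPM in Control areas 1 to 3 and 3283, 2817 and 4848 CPM in HIRA KO areas 1 to 3 below the median. Every bright sum lay above every sum of the other side. The log2 difference was 1.06 (SD of the 6 area ratios 0.15, adjusted p = 2.4e-07). H2-D1 had the larger change of the pair, with 2753, 2700.1 and 4238 CPM in Control areas 1 to 3 and 3687, 3073 and 6540.4 CPM in HIRA KO areas 1 to 3 in bright cells. Below the median it had 1003, 926 and 1708 CPM in Control areas 1 to 3 and 1703, 1438 and 2259 CPM in HIRA KO areas 1 to 3. Here too the sides did not overlap, and the log2 difference was 1.34 (SD of the 6 area ratios 0.20, adjusted p = 4.8e-09). Genes whose sides did not overlap made up 10.9% of all genes tested.

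The secreted class Ib molecule went the other way. H2-Q10 stood at 927, 944 and 534 CPM in Control areas 1 to 3 and 1278, 1018 and 1127 CPM in HIRA KO areas 1 to 3 in bright cells. It stood at 2677, 3372 and 4299 CPM in Control areas 1 to 3 and 2320.1, 2902 and 4194 CPM in HIRA KO areas 1 to 3 in cells below the median. Every bright sum was lower than every sum of the other side. The log2 difference was -1.69 (SD of the 6 area ratios 0.71, adjusted p = 6.1e-08), so that the dim cells held 3.23 times the level of the bright ones. 

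The 250 bases before the start sites of these 4 genes are shown because 3 of them rose together and the fourth fell, and they come from RefSeq on the mouse build GRCm38.p6. They were searched on both strands for the core of the interferon-stimulated response element (GAAANNGAA), the kappa B site of class I enhancers (GGGGATTCC), the X2 box bound by the NLRC5 complex (TGACGC) and the CCAAT box (CCAAT), and the matches, none of which overlap one another, are in capitals, read 5′ to 3′ on the strand of the gene. The windows are chr2:122147437-122147686 on the + strand for B2m, chr17:34000334-34000583 on the - strand for H2-K1, chr17:35262844-35263093 on the + strand for H2-D1 and chr17:35469839-35470088 on the + strand for H2-Q10, and for H2-K1 the annotation gives 2 windows of which the one further downstream is shown.
B2m: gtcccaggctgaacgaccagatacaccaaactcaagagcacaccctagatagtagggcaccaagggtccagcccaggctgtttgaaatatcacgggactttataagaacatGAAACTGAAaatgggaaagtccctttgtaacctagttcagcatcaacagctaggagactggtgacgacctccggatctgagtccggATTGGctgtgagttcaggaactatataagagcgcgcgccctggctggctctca
H2-K1: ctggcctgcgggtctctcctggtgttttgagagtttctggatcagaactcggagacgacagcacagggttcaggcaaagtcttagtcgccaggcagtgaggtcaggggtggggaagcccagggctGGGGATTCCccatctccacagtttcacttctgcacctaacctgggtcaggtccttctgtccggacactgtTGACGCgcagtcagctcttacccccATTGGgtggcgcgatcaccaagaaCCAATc
H2-D1: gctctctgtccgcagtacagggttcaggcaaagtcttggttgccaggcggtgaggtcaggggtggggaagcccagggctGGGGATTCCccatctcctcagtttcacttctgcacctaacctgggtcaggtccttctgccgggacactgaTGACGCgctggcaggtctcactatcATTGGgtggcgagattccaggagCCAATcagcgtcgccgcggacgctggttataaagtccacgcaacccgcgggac
H2-Q10: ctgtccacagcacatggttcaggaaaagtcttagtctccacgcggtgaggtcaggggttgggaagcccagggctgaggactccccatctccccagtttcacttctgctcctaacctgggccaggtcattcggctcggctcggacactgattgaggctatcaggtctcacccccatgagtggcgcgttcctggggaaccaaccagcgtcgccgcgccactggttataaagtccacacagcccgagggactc

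The B2m window held the interferon element at 139 bases before the start and an inverted CCAAT box at 53. H2-K1 held the kappa B site at 125 bases and the X2 box at 55 bases before the start, and H2-D1 held the same pair at 171 and 101, each with 2 matches of CCAAT in either orientation. The H2-Q10 window held 0 matches of the 4 motifs. The search took exact letters only, so a window with 0 matches may still hold a variant of an element. The stretch tttcacttc, for example, stands in the H2-K1, H2-D1 and H2-Q10 windows alike and was not counted. Over 32851 promoter windows of the same length, GAAANNGAA was found in 7.13%, GGGGATTCC in 0.213%, TGACGC in 6.12% and CCAAT in 33.8%. A match describes these letters only, and the data hold no measure of binding.

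**Figure D1:**
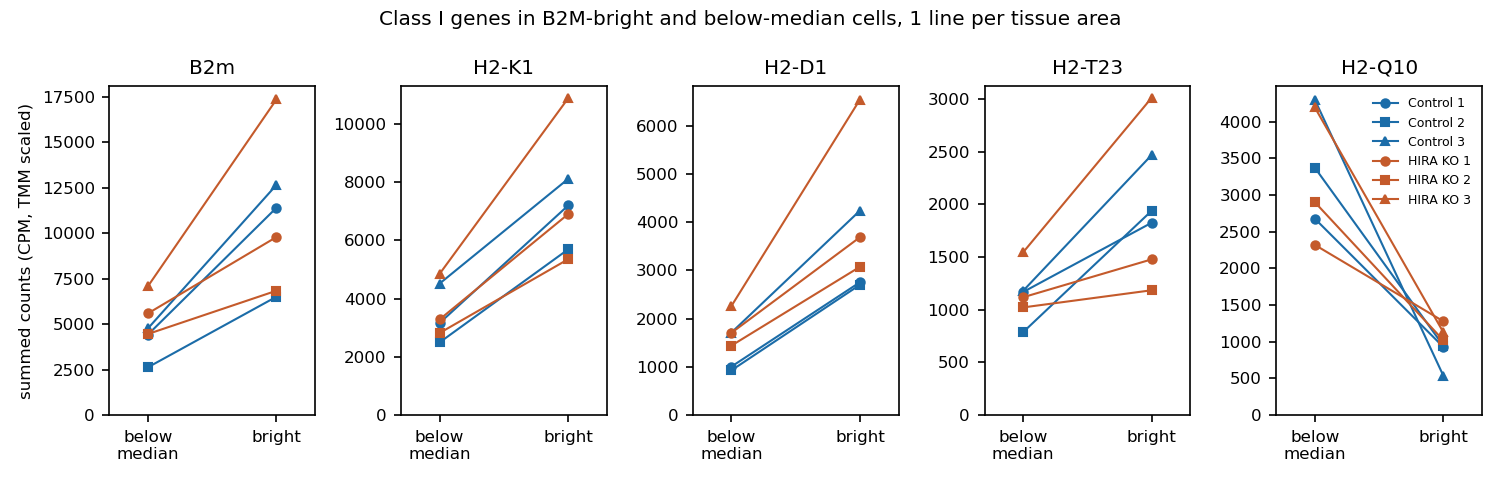
CPM (TMM scaled, vertical axis starting at 0) of 5 MHC class I genes in the summed bright and below-median cells of each area, with 1 line per area joining its 2 sides, Control and HIRA KO in separate colours. B2m, H2-K1, H2-D1 and H2-T23 were higher in bright cells in 6 of 6 areas, and H2-Q10 was lower in 6 of 6.

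Of the 8 genes of the class I and peptide loading list, which holds B2m, H2-K1, H2-D1, H2-T23, H2-M3, Tap1, Tap2 and Nlrc5 but not H2-Q10, 6 were higher and 0 lower (median log2 difference 0.59, against -0.03 over all genes and 17.8% of all genes called higher). H2-T23, which presents leader peptides to NK cell receptors, ranged from 1185 to 3013 CPM in bright sums and from 787 to 1545 CPM in below-median sums, and its log2 difference was 0.77 (SD of the 6 area ratios 0.42, adjusted p = 3.3e-05). Tap2 ranged from 918 to 1090.2 CPM in bright sums and from 657 to 852 CPM in below-median sums with no overlap, a difference of 0.41 (adjusted p = 0.00807). H2-M3, which presents formylated peptides, differed by 0.33 (adjusted p = 0.0335), a call that was lost in 13 of the 22 settings other than the maximum and residual rankings described further on (adjusted p up to 0.11 with 1 area left out). Tap1, the partner of Tap2, was at 0.21 (adjusted p = 0.11), and Nlrc5 at -0.15 (adjusted p = 0.42), both short of the threshold. Of the other H2 genes outside the list, chosen after their values were seen, H2-Q1 differed by 0.28 (adjusted p = 0.04) and lost its call in 13 of the 22 settings other than the maximum and residual rankings, H2-Q2 by -0.12 (adjusted p = 0.44) and H2-Pa by 0.00 (adjusted p = 0.99).

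Genes of antigen presentation by MHC class II, which professional antigen-presenting cells carry, were higher as well. Of the 9 on the panel, 6 were higher and 0 lower (median log2 difference 0.74, where 17.8% of all genes were called higher). Cd74, the invariant chain that guides class II molecules, ranged from 4572 to 18837 CPM in bright sums and from 1191 to 5854 CPM in below-median sums and differed by 1.41 (SD of the 6 area ratios 0.68, adjusted p = 1.9e-06), higher in 6 of 6 areas with overlap across areas. The alpha chain gene H2-Aa differed by 1.38 (SD of the 6 area ratios 0.62, adjusted p = 6.7e-07). The beta chain genes H2-Ab1 and H2-Eb1 differed by 1.26 (adjusted p = 2.6e-06) and 1.005 (adjusted p = 6.9e-06). H2-DMa, part of the molecule that loads peptides onto class II, was higher by 0.62 (adjusted p = 0.000109), and H2-DMb1 by 0.74 (adjusted p = 0.000186), the latter in 5 of 6 areas and at a count no higher than the highest negative probe. H2-DMb2 (-0.20), H2-Ob (-0.04) and Ciita, the class II regulator (0.12), did not pass.

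Macrophage genes were higher, and all 6 Kupffer markers on the panel were called higher (median log2 difference 1.48, where 17.8% of all genes were called higher). Of these, 4 were higher in 6 of 6 areas, as 15.5% of all genes were. Cd163 was about level between the sides in the HIRA KO areas, as described further on. Cd5l, a scavenger protein secreted by Kupffer cells, stood at 4606, 3093 and 6574 CPM in Control areas 1 to 3 and 2391, 1962 and 6516 CPM in HIRA KO areas 1 to 3 in bright cells and at 839.9, 654 and 1265 CPM in Control areas 1 to 3 and 903, 896 and 1442 CPM in HIRA KO areas 1 to 3 below the median. The sides did not overlap, and the log2 difference was 1.98 (SD of the 6 area ratios 0.55, adjusted p = 1.5e-09). The complement genes C1qa, C1qc and C1qb, whose products form C1q, differed by 1.57 (adjusted p = 4.9e-08), 1.53 (adjusted p = 1.8e-08) and 1.43 (adjusted p = 1.5e-07). The summed Kupffer markers ranged from 9348 to 28121 CPM in bright sums and 4504 to 8186 CPM below the median, and none of them was at 0 in a bright sum. Of the 6 lysosome and cathepsin genes, 4 were higher and 0 lower (median 0.76), led by Psap, the precursor of the saposins that help degrade sphingolipids, with 1.21 (adjusted p = 1.1e-06), and Ctsd, the protease cathepsin D, with 1.15 (adjusted p = 2e-06).

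The largest rises of all were in genes of bile duct cells. Spp1, osteopontin, stood at 3543, 3382 and 2403 CPM in Control areas 1 to 3 and 5074, 6812 and 3258 CPM in HIRA KO areas 1 to 3 in bright cells. It stood at 484, 316 and 802 CPM in Control areas 1 to 3 and 515, 434 and 431 CPM in HIRA KO areas 1 to 3 below the median. The sides lay far apart without overlap, and the log2 difference was 3.06 (SD of the 6 area ratios 0.80, adjusted p = 7.3e-11), a fold of 8.35. Clu, the chaperone clusterin, ranged from 6874 to 24139 CPM in bright sums and from 1639 to 3481 CPM in below-median sums, a log2 difference of 2.32 (SD of the 6 area ratios 0.63, adjusted p = 1.5e-09). Of the 7 cholangiocyte markers 4 were higher and 0 lower, where 17.8% of all genes were called higher and 11.7% lower. Besides Spp1 and Clu these were Sox9 (0.82), a transcription factor of the biliary lineage, and Epcam (0.64), an epithelial adhesion molecule. The list, Spp1 and Clu included, summed to 11779 to 36115 CPM in bright sums and 4665 to 6859.9 CPM below the median. The keratin Krt7 was at 0.34 (adjusted p = 0.19) and did not pass, and of 6 simple epithelial keratins 0 were higher and 1, Krt20, was lower, at -0.48 (adjusted p = 0.0351), a call lost in 12 of the 22 settings, among them the omission of Control area 1 and of either of HIRA KO areas 1 and 3.

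Most markers of sinusoidal endothelial cells were also higher, where 17.8% of all genes were called higher. Of 4 sinusoidal endothelial markers 3 were higher (median 0.97): Kdr, the main receptor for VEGF, by 1.22, Eng, a co-receptor for TGF-beta, by 1.07, and Bmp2, a ligand in iron sensing. They summed to 5019 to 9477 CPM in bright sums and 2857 to 3971 CPM below the median. Of 7 stellate markers 3 were higher, Dcn, Hgf and Bmp5, and 0 lower (median 0.33), to be read against the same 17.8%. Igfbp7, an IGF-binding protein of vessels, ranged from 5424 to 11412 CPM in bright sums and from 1700.3 to 4142 CPM in below-median sums and differed by 1.33 (SD of the 6 area ratios 0.27, adjusted p = 2.6e-08). The small matrix proteoglycans Dcn (decorin) and Bgn (biglycan) were higher by 1.24 (adjusted p = 2.4e-07) and 1.23 (adjusted p = 1.8e-08), whereas of the 13 fibrillar collagen and matrix genes only these were higher and 2 others, Fn1 and Col5a3, were lower. Col4a1, a basement membrane collagen, was higher by 0.60 (adjusted p = 4.2e-05) and Col18a1, a basement membrane collagen that hepatocytes also make, was lower, at -1.08 (adjusted p = 2.9e-06). Of 12 adhesion and junction genes 6 were higher and 0 lower (median 0.32, where 17.8% of all genes were called higher), with Vcam1, which holds leukocytes at the vessel wall, at 0.61 (adjusted p = 0.000485) in 5 of 6 areas and Cdh1, E-cadherin, at 0.49 (adjusted p = 0.00137).

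Hepatocyte genes were lower in bright cells. All 9 hepatocyte markers fell, each in 6 of 6 areas (median log2 difference -1.41, where 11.7% of all genes were called lower and 13.3% were lower in 6 of 6 areas), and their sum ranged from 20033 to 46150.2 CPM in bright sums and 48979 to 116442 CPM below the median. Ttr, the carrier of thyroid hormone and retinol, differed by -1.62 (SD of the 6 area ratios 0.40, adjusted p = 3e-08). Arg1, the last enzyme of the urea cycle, differed by -1.51 (SD of the 6 area ratios 0.30, adjusted p = 7.8e-09). Fgg, the fibrinogen gamma chain, and Apoa1, the main protein of HDL, differed by -1.51 (adjusted p = 2.7e-09) and -1.499 (adjusted p = 3.9e-08). Azgp1, Gc (the vitamin D carrier) and Vtn (vitronectin), all plasma proteins, differed by -1.41 (adjusted p = 6.1e-08), -1.41 (adjusted p = 2.6e-08) and -1.26 (adjusted p = 4e-08). Of the 8 genes of secreted plasma proteins and apolipoproteins 7 were lower (median -1.33) and 1 was higher, Apoe (0.58), an apolipoprotein that macrophages also make. Of 12 genes of nitrogen and lipid metabolism 9 were lower and 0 higher (median -0.56), among them Insig1, which holds back cholesterol synthesis, with -0.98 (adjusted p = 4.7e-06).

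The largest fall was that of Neat1, a long noncoding RNA of the nucleus that builds paraspeckles. Neat1 stood at 1472, 2123 and 2569 CPM in Control areas 1 to 3 and 2263, 2092 and 2376 CPM in HIRA KO areas 1 to 3 in bright cells. It stood at 6169, 10881 and 12458 CPM in Control areas 1 to 3 and 4930.4, 5247 and 7988 CPM in HIRA KO areas 1 to 3 below the median. The sides did not overlap, and the log2 difference was -1.80 (SD of the 6 area ratios 0.51, adjusted p = 1.1e-08), although a larger share of the transcripts of bright cells lay over the nucleus. Meg3, the other nuclear noncoding RNA on the panel, differed by -0.41 (adjusted p = 0.0369) in 5 of 6 areas, a call lost in 16 of the 22 settings, among them the omission of any 1 area other than Control area 2. Vegfa, the growth factor that hepatocytes supply to the sinusoids, was lower, at -1.20 (SD of the 6 area ratios 0.46, adjusted p = 7.8e-07), while its receptor gene Kdr was higher.

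Of 19 interferon response genes 5 were higher and 0 lower (median 0.08), a share to be read against the 17.8% of all genes that were called higher. Ifitm3, a membrane protein that blocks virus entry, ranged from 2412 to 3604 CPM in bright sums and from 1211 to 1860.02 CPM in below-median sums with no overlap, a difference of 0.83 (SD of the 6 area ratios 0.18, adjusted p = 2.4e-06). Bst2 and Ifitm1 were also among the higher ones. Of 8 genes of interferon receptors and signalling 3 were higher: the kinase Jak1 by 0.83 (adjusted p = 2.4e-06), the receptor chain Ifnar2 by 0.66 (adjusted p = 0.0001), and Ifngr1. Of the 7 acute phase genes 0 were higher and 3 lower, Fgg, Crp (-0.53) and Saa1/2, serum amyloid A, with -0.76 (adjusted p = 0.000183). Over all genes 11.7% were called lower. Of the heat shock genes 2 of 6 were higher, Hspa1a by 0.58 (adjusted p = 0.00192) and Hspb1 by 0.28 (adjusted p = 0.044), a share to be read against the same 17.8%. The call of Hspb1 was lost in 13 of the 22 settings, among them without Control area 1 or any 1 HIRA KO area, and that of Hspa1a in 3. Of the antioxidant and metallothionein genes 1 of 7 was lower, Sod1 at -0.41 (adjusted p = 0.0125), a call lost in 4 of the 22 settings, among them without HIRA KO area 1. Gpx1 at -0.34 (adjusted p = 0.0701) and Atp5e, a subunit of ATP synthase, at 0.13 (adjusted p = 0.42) did not pass.

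Few markers of lymphocytes passed. Over all genes 17.8% were called higher and 11.7% lower, and lists this short cannot be told from those shares by their counts. Of 14 T and NK cell genes tested 1 was higher, the chemokine Ccl5 (0.84), of 4 B cell genes 0, and of 7 plasma cell genes 0 were higher and 2 lower, Ighg1 and Xbp1. Of 5 neutrophil genes 1 was higher, S100a8, and of 2 erythroid genes 0 moved. Fibroblast and smooth muscle markers each had 1 lower gene, Dpt and Myh11, and 0 higher.

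**Figure D2:**
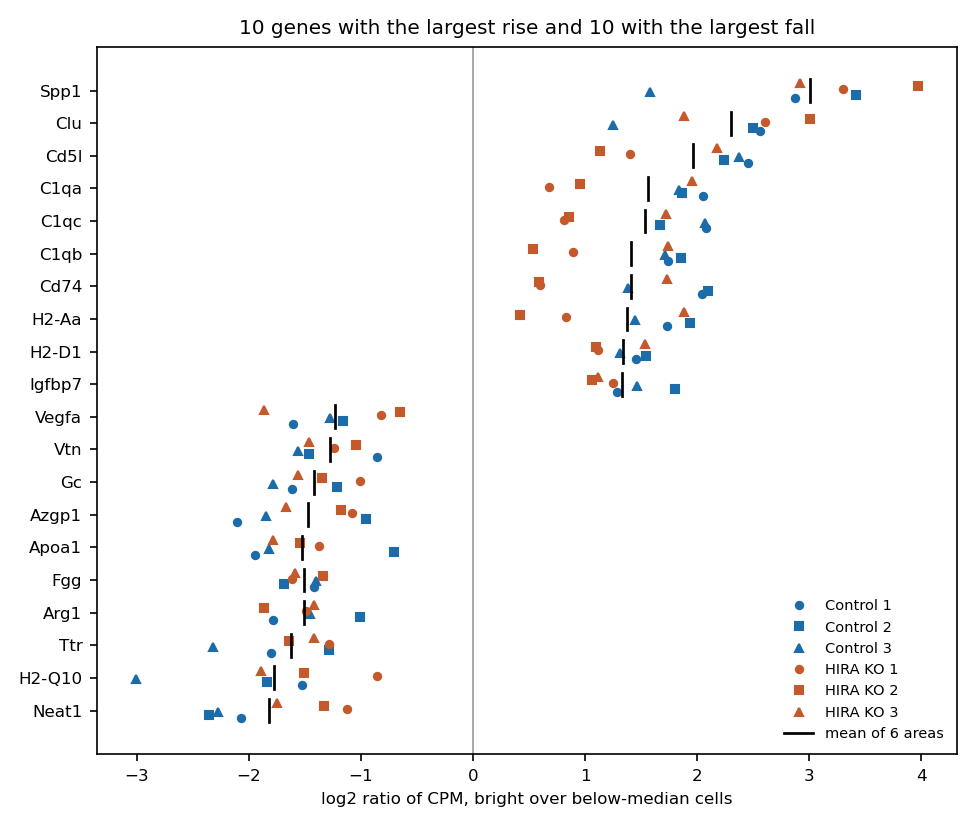
Log2 ratio of bright to below-median CPM (horizontal axis) for the 10 genes with the largest rise and the 10 with the largest fall that moved the same way in 6 of 6 areas, with 1 point per area and a bar for the mean of the areas. Spp1 and Clu stand furthest to the right and Neat1 and H2-Q10 furthest to the left, and for each gene all 6 areas lie on the same side of 0.

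B2m, H2-K1 and H2-D1 rose over most of the range of the stain and levelled off at its top. Spp1 and Clu rose below the top as well, and most steeply into the brightest bin. Cells of each area were divided into 20 equal bins of B2M stain, of which the last is the bright group, and the CPM of a gene in the bins was set against their order by Spearman's rho, averaged over the 6 areas. These values are a description, over 20 bins that share an area, for the 752 genes whose counts, totalled over all bins, exceeded those of the highest negative probe. CPM in the bins was scaled to total counts alone, without TMM, so values of the last bin differ from those of the bright sums above. B2m itself reached a mean rho of 0.976, rising from 3602 CPM in the dimmest bin to 6125 in the tenth and 10268 in the brightest. H2-D1 (rho 0.971) rose from 1108 to 1851 and 3659 CPM in the same bins, and H2-K1 from 3012 to 4171 and 7049.6. The gene that followed the stain most closely was Itm2b, an integral membrane protein of wide expression, with a rho of 0.982, and Igfbp7 (0.962) and C1qb (0.957) completed the first 5. At the other end stood Neat1 (-0.979), Clec2d, a ligand of an NK cell receptor (-0.962), H2-Q10 (-0.954), Vegfa (-0.942) and Insig1 (-0.926). H2-Q10 fell from 4113 to 2986 and 943 CPM. The summed hepatocyte markers changed little over the lower bins, with 72572 CPM in the dimmest and 73058 in the tenth, and stood at 29142 in the brightest. The summed cholangiocyte markers stood at 5901, 6879, 12540.04 and 22281 CPM in bins 1, 10, 19 and 20. Spp1 went from 1939 to 3987 CPM and Clu from 7711 to 14634 CPM between bins 19 and 20, and in bin 1 they stood at 326 and 2467 CPM. Clu and Spp1 together thus made up most of the sum of their list in bin 20. Kupffer markers stood at 4493, 7627 and 16642 CPM in bins 1, 10 and 20.

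**Figure D3:**
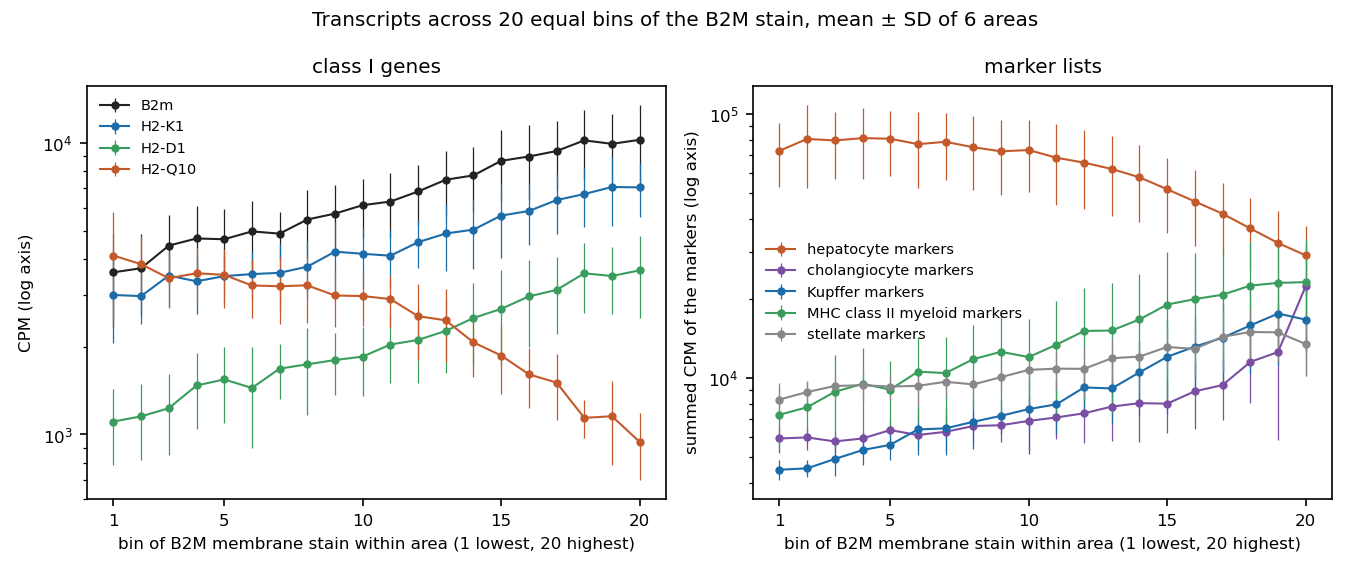
Mean CPM over the 6 areas (vertical axes, log scale, with the SD between areas as error bars) in 20 equal bins of B2M stain within each area from dimmest to brightest (horizontal axis) for class I genes and summed marker lists. CPM is not TMM scaled here. B2m rises from 3602 to 10268 CPM and H2-Q10 falls from 4113 to 943 CPM between the first and the last bin.

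To ask which cells were bright, each cell was assigned to the marker list with the most counts, after thinning every cell to 20 counts so that depth did not decide. Cells led by hepatocyte markers made up 13.6 ± 5.37% against 44.6 ± 9.47% of the bright and below-median cells (mean ± SD over 6 areas). Cells led by cholangiocyte markers made up 11.8 ± 5.96% against 1.58 ± 0.498%, those led by Kupffer markers 6.21 ± 2.57% against 1.29 ± 0.245%, and those led by markers of MHC class II myeloid cells 8.46 ± 4.48% against 3.70 ± 1.42%. How far Spp1 and Clu alone decided which cells were cholangiocyte-led was not tested. Stellate-led cells made up 5.85 ± 2.96% against 2.70 ± 0.604% and sinusoidal endothelial-led cells 2.83 ± 1.69% against 0.858 ± 0.320%. These 6 classes, and the erythroid-led cells (0.203 ± 0.199% against 0.493 ± 0.167%), differed the same way in 6 of 6 areas, which gives the smallest exact p of 0.0312 (sign-flip permutation test, two-sided), but over 15 classes the adjusted p was 0.067, so none passed. Cells without a single leading list made up 41.2 ± 6.04% against 35.3 ± 6.79%, and T and NK-led cells 3.51 ± 0.9797% against 2.97 ± 1.08%. Without thinning the shares were further apart, with hepatocyte-led cells at 20.6% of bright and 73.4% of below-median cells and cholangiocyte-led cells at 19.1% and 0.966%, and 11 of 15 passed (exact test, adjusted p = 0.0426).

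Turned around, the share of each class that was bright can be read against the 5% that the rule sets for all cells. Of the 1748 cholangiocyte-led cells 29.7 ± 12.8% were bright (SD, n = 6 areas, 11.8% to 50.5%), the highest share of any class. Neutrophil-led cells came next with 15.4 ± 9.54%, on 127 cells and as few as 9 in an area. Of Kupffer-led cells 13.2 ± 2.81% were bright, of MHC class II myeloid-led cells 10.3 ± 5.36%, of sinusoidal endothelial-led cells 9.90 ± 6.31%, of large-vessel endothelial-led cells 9.35 ± 3.52% and of stellate-led cells 7.49 ± 1.93%. Among the 27908 hepatocyte-led cells only 1.51 ± 0.663% were bright, from 0.675% to 2.18% over the areas, so that no area reached 5%. T and NK-led cells stood at 8.76 ± 3.48%, plasma-led cells at 4.29 ± 1.71% and fibroblast-led cells at 2.58 ± 3.37%. These shares are a description. They come from cells not thinned and led by at least 3 marker counts, a minimum that the shares of the sides above did not set, so the classes do not hold the same cells.

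**Figure D4:**
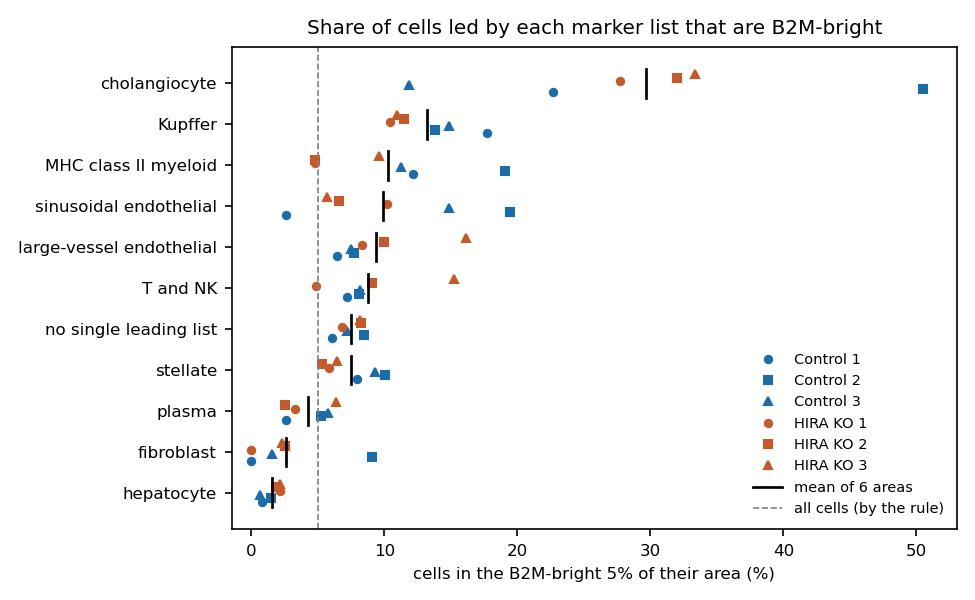
Percent of the cells led by each marker list that were B2M bright (horizontal axis), for lists with at least 19 cells in every area, with 1 point per area, a bar for the mean, and a dashed line at the 5% that the rule sets over all cells. Cholangiocyte-led cells lie between 11.8% and 50.5% and hepatocyte-led cells between 0.675% and 2.18%.

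B2m, H2-K1 and H2-D1 were higher in bright cells within most classes as well, with CPM again scaled to total counts alone, without TMM. Given as medians over areas of bright against below-median cells, with no test because some sums are small, B2m was at 7031 against 5221 CPM in cholangiocyte-led cells (higher in 6 of 6 areas), 10425 against 6066 CPM in Kupffer-led (5 of 6) and 13743 against 8922 CPM in stellate-led cells (5 of 6). It was at 10224 against 5886 CPM in T and NK-led cells (6 of 6) and 10395 against 8618 CPM in MHC class II myeloid-led cells (4 of 6). In cells with no single leading list it was at 10413 against 5544 CPM (6 of 6). H2-K1 in Kupffer-led cells, 7468 against 6879 CPM and higher in 3 of 6 areas, was the least clear of these, and H2-D1 there was higher in 4 of 6. H2-Q10 went the other way. It was higher in 0 of 6 areas in stellate-led cells and in cells with no single leading list. In cells led by cholangiocyte, Kupffer, MHC class II myeloid or T and NK markers it was higher in 2 of 6, in some areas on 0 or 1 counts.

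The comparison was then made within hepatocyte-led cells, those with at least 3 hepatocyte marker counts and more of them than of any other list, 451 bright (23 to 116 per area) and 17361 below the median. With the same edgeR test 59 of 998 genes were higher (5.91%) and 38 lower (3.81%), 9.72% in all. B2m stood at 8506, 7077 and 8633 CPM in Control areas 1 to 3 and 9720.2, 7829 and 15436 CPM in HIRA KO areas 1 to 3 in bright hepatocyte-led cells. Below the median it stood at 4269.8, 2743 and 4382 CPM in Control areas 1 to 3 and 4722, 4346 and 6239 CPM in HIRA KO areas 1 to 3. The sides did not overlap, B2m was higher in 6 of 6 areas, as 4.21% of all genes were, and the log2 difference was 1.10 (adjusted p = 1.4e-11). H2-K1 differed by 0.90 (adjusted p = 6.9e-07), H2-D1 by 1.22 (adjusted p = 6.6e-10) and H2-T23 by 0.69 (adjusted p = 0.00923), so 4 of the 8 class I genes were higher, and H2-Q10 differed by -1.22 (adjusted p = 7.4e-08). Markers of other cells moved with them: of the sinusoidal endothelial markers 3 of 4 were higher (Kdr by 1.36, Eng by 1.28), of the Kupffer markers 4 of 6 (Cd5l by 1.17), and 6 of 9 hepatocyte markers were lower. Counts of these same markers chose the hepatocyte-led cells, so their differences here are not independent of that choice. In bright hepatocyte-led cells the sinusoidal markers summed to 4253 to 8443 CPM in bright sums and 2991 to 3812 CPM below the median, and the Kupffer markers to 7883 to 12707 CPM in bright sums and 4599 to 7594 CPM below the median. Bright hepatocyte-led cells were small, with a median of 8822 against 20944 square pixels, they held a median of 5 against 11 hepatocyte marker counts, and 207 of the 451 led by 1 or 2 counts only. The part of transcripts from neighbouring or overlying cells in these differences was not tested. When 10 marker counts were required, which left 104 bright cells, 0 genes passed (63 at an unadjusted p under 0.05), and B2m was at 0.36 (adjusted p = 0.94) and H2-D1 at 1.09 (adjusted p = 0.56).

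The 20 nearest cells around each bright cell were classed in the same way. Cholangiocyte-led cells made up 5.16% of the neighbours of bright cells and 3.33% of those of the other side (higher in 5 of 6 areas), and hepatocyte-led cells 52.6% and 56.4% (higher in 1 of 6). No class passed (exact sign-flip permutation test, smallest adjusted p = 0.28). Bright cells themselves made up 9.28% to 13.9% of the neighbours of bright cells and 3.10% to 4.24% of those of below-median cells, a description since the stain chose them.

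The result depended on how brightness was measured. When cells were ranked by the maximum of the B2M stain in place of its mean, only 663 of 2499 bright cells (26.5%) were the same, and the maximum was higher in larger cells (rho with cell area from 0.274 to 0.391). By that ranking 36 genes were higher and 32 lower, 38 of the 295 called genes passed again, 13 of these with the opposite sign. B2m then differed by -0.03 (adjusted p = 0.92), H2-K1 by 0.14 (adjusted p = 0.44), H2-D1 by 0.13 (adjusted p = 0.50) and H2-Q10 by -0.09 (adjusted p = 0.67), so none of the class I differences passed, and Neat1 was at 0.05 (adjusted p = 0.87). Spp1 at 3.29 (adjusted p = 1.3e-28) and Clu at 2.53 (adjusted p = 4.8e-23) were as high as before, while C1qa at -0.33 (adjusted p = 0.0137) and Cd74 at -0.43 (adjusted p = 0.00314) were lower. When cells were ranked by what remained of log2 B2M after a linear fit on PanCK, CD45, CD3 and DAPI, B2m and the classical heavy chains kept their calls, C1q genes, Cd5l and class II genes turned sign, and Psap (0.13) and Ctsd (0.15) did not pass. B2m differed by 0.73 (adjusted p = 3.1e-06), H2-K1 by 0.79 (adjusted p = 1.8e-07), H2-D1 by 0.88 (adjusted p = 7.4e-08) and H2-Q10 by -1.36 (adjusted p = 2.1e-09). Spp1 (3.07) and Igfbp7 (1.46) stayed higher and Neat1 (-1.41) lower, but C1qa at -0.81 (adjusted p = 0.000232), Cd5l at -0.71 (adjusted p = 0.00694) and Cd74 at -0.88 (adjusted p = 2.5e-06) were lower. Over the other 22 settings B2m ranged from 0.72 to 1.37, H2-K1 from 0.74 to 1.15, H2-D1 from 0.89 to 1.44 and H2-Q10 from -2.06 to -1.14, each past the threshold in all 22.

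**Figure D5:**
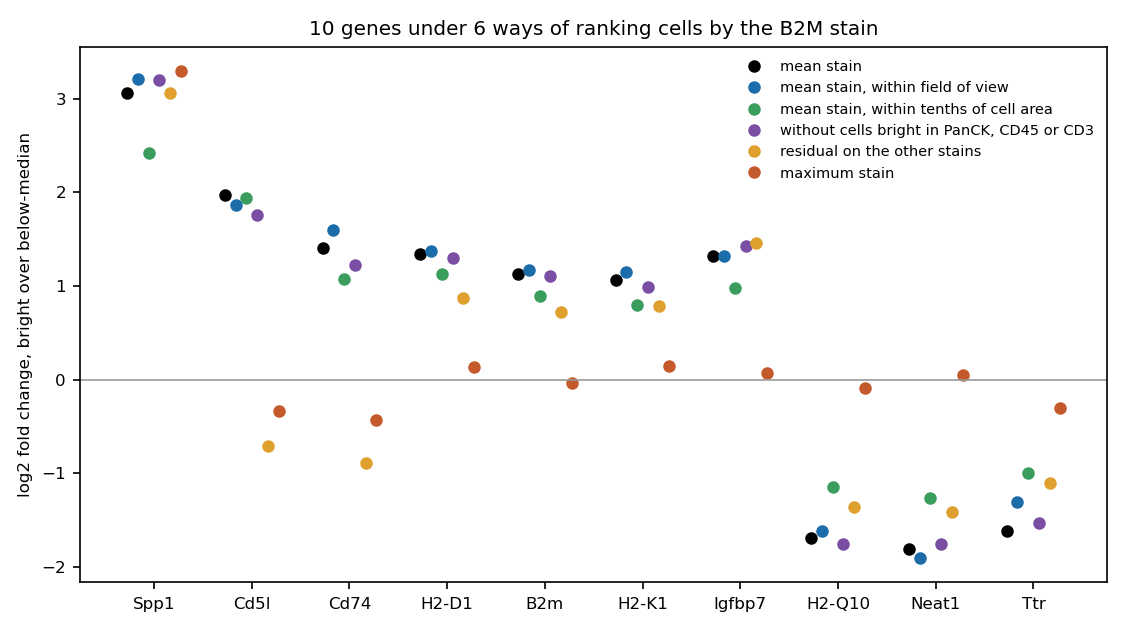
Log2 difference between bright and below-median cells (edgeR, vertical axis) for 10 named genes under 6 ways of ranking cells, among them the mean B2M stain, the mean within 10 bands of cell area, the residual of the stain on the other stains and the maximum stain. B2m stands at 1.13 by the mean, 0.73 by the residual and -0.03 by the maximum, and Cd5l and Cd74 lie under 0 by the residual and the maximum.

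Whether the contrast of bright and dim cells differed with the loss of HIRA was tested as an interaction of side and genotype. Of 998 genes, 0 were more positive and 3 more negative in HIRA KO (0.301% called, 69 at an unadjusted p under 0.05). Cd163, the haemoglobin scavenger receptor of tissue macrophages, stood in bright cells at 1090.2, 1127 and 1602 CPM in the Control areas and at 511, 518 and 441 CPM in the HIRA KO areas. Below the median it stood at 464, 534 and 521 CPM in Control and 548, 488 and 406 CPM in HIRA KO. It was thus higher in bright than in dim cells in the Control areas and about level in the HIRA KO areas, on 18 to 48 counts per bright sum. In the bright sums of HIRA KO areas 1 to 3 it had 28, 28 and 18 counts, no more than the 33, 29 and 19 of the highest negative probe there. The interaction was -1.28 on the log2 scale (adjusted p = 0.0129). The log2 ratio of bright to dim cells for Ctsd was 1.51, 1.70 and 1.67 in the Control areas and 0.50, 0.54 and 1.04 in the HIRA KO areas, all above 0 and higher in each Control area than in any HIRA KO area, an interaction of -0.94 (adjusted p = 0.031). Igha, the heavy chain of IgA and a marker of plasma cells, had the largest interaction, -2.61 (adjusted p = 0.000254), with log2 ratios of -0.83, 0.39 and 1.70 in Control and -1.57, -2.19 and -1.66 in HIRA KO, but its mean count in the bright sums, 22.8, was below that of the highest negative probe, 24.3. Igha was not called between bright and dim cells over all areas and is named because so few genes passed. These calls depended on single areas and on the settings. Over 11 other settings the call was lost in 4 for Igha, in 8 for Cd163 and in 10 for Ctsd. Without HIRA KO area 3 the interaction had 6 more positive and 24 more negative genes, and without Control area 3 or HIRA KO area 2 it had none, with 54 and 46 at an unadjusted p under 0.05. Within 10 bands of cell area 0 genes passed, with 72 at an unadjusted p under 0.05.

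The class I genes did not pass the threshold of the interaction: it was -0.45 (adjusted p = 0.70) for B2m, -0.02 (adjusted p = 0.99) for H2-K1, -0.18 (adjusted p = 0.96) for H2-D1, -0.45 (adjusted p = 0.71) for H2-T23 and 0.64 (adjusted p = 0.70) for H2-Q10. Within bright cells alone, HIRA KO against Control, 1 of 989 genes passed (0.101%, with 49 at an unadjusted p under 0.05), and it was Cd163, lower in each HIRA KO area than in any Control area, at -1.34 on the log2 scale (edgeR, adjusted p = 0.0145). That call was lost when Control area 3 or either of HIRA KO areas 1 and 2 was left out (adjusted p from 0.0573 to 0.23). B2m differed by 0.16 (adjusted p = 1.0), H2-K1 by 0.15 (adjusted p = 1.0), H2-D1 by 0.47 (adjusted p = 0.94) and H2-Q10 by 0.50 (adjusted p = 0.90). With the row of the slide as a block, Ankrd1 (1.59), Ttr (1.51), Gc (1.09), Mt2 (0.90) and Vtn (0.88) also passed as higher in HIRA KO bright cells, chosen after their values were seen.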

How the data were processed

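The authors deposited a table of raw counts, with a row for each segmented cell of 50 fields of view and a column for each probe target, not normalized. Per the file headers, the authors also deposited the mean and maximum intensity of each stain, the area and the position of each cell. The platform made both, and any subtraction of background, whether the membrane image guided the segmentation, and the software are not given in the sources used here. Negative probes and transcripts outside cells (6.89%) entered neither library sizes nor tests. Tissue areas are runs of consecutively numbered fields of view of 1 genotype, and they served as replicates. Both sides of an area came from the same section, and the area was therefore the block. No doublet caller was run.

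The members, the gene lists and the tests were chosen with earlier results of these data known. Counts were summed per side and area and tested with edgeR 4.0.16 in R 4.3.3 (TMM, filterByExpr, quasi-likelihood test, Benjamini-Hochberg at 0.05), and other measures with exact permutation tests in scipy 1.17.1. Genes named are the 10 per direction with the largest change among those past the threshold, alike in 6 of 6 areas and above the highest negative probe, all class I and class II members, the 2 members of each other list with the lowest p, up to 5 genes per direction of the genotype tests, and the 5 genes at either end of the rho with the stain bins. Genes named beyond this rule were picked with their values in view. A gene that this rule would name is not reported here. The edgeR step was tested on simulated data. Alternatives changed 1 choice at a time (scaling, DESeq2 1.42.0, filters, the area block, the share and ranking of bright cells, thinning, areas left out), and the rankings within 10 bands of cell area and without cells near an edge were added after the data were seen. Promoters are from RefSeq, matched by symbol.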

Additional observations from a re-analysis of the deposited data

Results flagged for a closer look

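Of 54 groups of 6 area values tested for an extreme area, 2 stood out, where chance gives 5%. The difference between bright and below-median cells in the share led by erythroid markers had 1 area far under the others (gap over range 0.661), and so did the log2 ratio of H2-Q2 (0.630), which did not pass its test. The contrast of bright and below-median cells differed between the genotypes, by the interaction test in edgeR, for Igha (-2.61 on the log2 scale), Cd163 (-1.28) and Ctsd (-0.94), each less positive or more negative in HIRA KO. These calls were not stable: of 11 other settings, 4 lost that of Igha, 8 that of Cd163 and 10 that of Ctsd. Of the other Kupffer markers, Cd5l, C1qa, C1qb and C1qc did not pass that test over all areas, with Cd5l at -0.76 (adjusted p = 0.21) and C1qa at -0.69 (adjusted p = 0.43), but they passed without HIRA KO area 3, with Cd5l at -1.08 and C1qa at -1.09. The bright sum of HIRA KO area 3 held 6516 CPM of Cd5l against 2391 and 1962 CPM in the other HIRA KO areas.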

How the results depend on the processing

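Without the replicate block, that is with area left out of the model, 161 genes were higher and 88 lower, 246 of the 295 calls were kept, and 0 of the 295 genes turned sign. Leaving out 1 area in turn gave 152 to 177 higher and 82 to 95 lower genes. Library size scaling gave 187 lower genes, all cells under the top 5% as the rest 75, the top 2% as bright 44, Control areas alone 52, HIRA KO areas alone 116 higher and 48 lower, thinning to 20 counts 68 and 25, and the maximum stain 36 and 32. The interaction had 1 gene by library size, by DESeq2 and after thinning, and 0 within 10 bands of cell area. Leaving out 1 area in turn gave 0 to 6 more positive and 0 to 24 more negative genes. For HIRA KO against Control in bright cells, DESeq2 gave 2 higher genes, the slide row as a block 5, and leaving out 1 area 0 to 5 higher and 0 to 2 lower. Within hepatocyte-led cells DESeq2 gave 19 lower genes, thinning 2 higher and 5 lower (C1qc at -0.011), at least 10 marker counts 0 and 0, and leaving out 1 area 20 to 32 lower.

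By the maximum stain these genes changed sign: Cd5l (-0.33), C1qa (-0.33), C1qc (-0.36), C1qb (-0.41), Cd74 (-0.43), H2-Aa (-0.29), H2-Ab1 (-0.12), H2-Eb1 (-0.33), H2-DMa (-0.011), B2m (-0.030), H2-T23 (-0.18), H2-M3 (-0.025), Tap2 (-0.0031), Ifitm3 (-0.027), Jak1 (-0.089), Ifnar2 (-0.037), Psap (-0.13), Ctsd (-0.22), Dcn (-0.12), Col4a1 (-0.075), Hspb1 (-0.010), Itm2b (-0.0026), Neat1 (0.046) and Vegfa (0.19). By the residual on the other stains they were Cd5l (-0.71), C1qa (-0.81), C1qc (-0.59), C1qb (-0.94), Cd74 (-0.88), H2-Aa (-0.73), H2-Ab1 (-0.65), H2-Eb1 (-0.69), H2-DMa (-0.14) and H2-DMb1 (-0.17). The cause was not tested.

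Within 10 bands of cell area, bright minus below-median cells differed by 23.25 gene counts, 2.0 square pixels, -2.52 percentage points nuclear, -110.99 in DAPI, 2.10 counts per 1000 square pixels, 208 in PanCK, 806 in CD45 and -0.0599 percentage points of negative probes, none past the threshold. PanCK also missed it within fields of view (53.2) and with at least 50 counts per cell (86.0). Without thinning, these differences in share passed, in percentage points: hepatocyte -52.8, cholangiocyte 18.1, stellate 4.97, fibroblast -1.02, smooth muscle -0.415, sinusoidal endothelial 3.10, large-vessel endothelial 1.08, Kupffer 7.99, MHC class II myeloid 7.97, T and NK 2.06 and no single list 8.39. With 5 areas the sign-flip test cannot pass, so those values carry no test. A bright sum held 31522 to 55174 gene counts, and over the sums of both sides 254 of 998 genes had a mean count no higher than that of the highest negative probe.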
